A study of Drosophila melanogaster with 2 samples.

Results

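Insulator proteins bind boundary elements that keep an enhancer from acting across them, and in the fly they also mark borders between chromatin domains. Some read DNA directly through zinc or BED fingers (BEAF-32, CTCF, Su(Hw), Ibf1, Ibf2 and Zw5, the product of dwg), and others, the BTB-domain cofactors CP190 and Mod(mdg4), are brought in by them. Chromator (Chro) and Z4, the product of pzg, are partners found in the open interbands of polytene chromosomes, often beside BEAF-32.

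The genes examined were the 10 that encode these proteins, of 13968 protein-coding genes annotated on the 7 chromosome arms. For each gene, peaks were taken whose summit lay in the gene body or within 5 kb of it, in every deposited peak list, with their position in dm6, signal and rank. The members were matched by symbol to the annotation, and all 10 were found. A window of 5 kb often reaches neighbouring genes in the compact fly genome, so the gene whose start lies nearest to each summit is named as well.

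The peaks come from chromatin immunoprecipitation and sequencing (ChIP-seq) with an anti-GFP antibody in whole Drosophila melanogaster embryos aged 0 to 18 h, of a strain that carries a fusion of the neuroblast factor Worniu (wor) with eGFP. The antibody field of the labels names wor itself. There was 1 group with 2 biological replicates, no second genotype or time, and no control library was analysed here, so the values describe peaks and no test across embryos was possible. Whole embryos hold all tissues, so a peak cannot be placed in a cell type. The 8 peak lists used were 4 thresholded lists filtered by the irreproducible discovery rate (IDR, a measure of how well peak ranks repeat) and the 4 longer ranked lists behind them. The conservative list of both replicates had 3045 peaks on the arms and was the main one. The thresholded list of replicate 1 had 2266 and that of replicate 2 had 1793. Signal is the authors' value per peak and is read only within a list, where rank 1 is the highest. The labels name a possible control experiment, and whether the authors called peaks against it is not settled by the sources used here, which bears on what the signal is relative to. The number of reads per library is unknown.

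Sequences of the RefSeq Release 6 genome (dm6) are shown to set peaks at the members beside promoters without a peak. The DNA replication-related element (DRE) TATCGATA, searched below, occurs at members of both kinds. The first pair are whole peaks. The Cp190 peak, chr3R:15275265-15275452, and the peak between mod(mdg4) and tin, chr3R:21378664-21378852, are printed on the minus strand (the strand of Cp190 and of mod(mdg4)), and capitals mark the 21 bases centred on the summit. Both lie outside every annotated exon and are rich in A and T.
Cp190 peak: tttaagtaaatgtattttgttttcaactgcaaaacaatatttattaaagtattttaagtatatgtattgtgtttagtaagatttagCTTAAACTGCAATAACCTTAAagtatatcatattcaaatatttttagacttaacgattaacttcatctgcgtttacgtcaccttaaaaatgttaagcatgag
mod(mdg4)-tin peak: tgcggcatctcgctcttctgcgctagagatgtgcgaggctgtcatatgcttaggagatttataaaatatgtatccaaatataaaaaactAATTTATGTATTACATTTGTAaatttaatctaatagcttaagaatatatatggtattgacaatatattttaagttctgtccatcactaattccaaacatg
The next pair are stretches without the DRE just upstream of starts. The first is the part of the Chro peak upstream of the Chro start, chr3L:22878985-22879065 on the minus strand. The other is the whole stretch between the starts of CG12974 and pzg, chr3L:21285963-21286098 on the plus strand. The stronger pzg peak ends before that stretch, at chr3L:21285955, and only the weaker pzg peak, described below, covers it.
Chro upstream: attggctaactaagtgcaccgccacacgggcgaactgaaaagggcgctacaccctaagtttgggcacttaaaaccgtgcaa
pzg upstream: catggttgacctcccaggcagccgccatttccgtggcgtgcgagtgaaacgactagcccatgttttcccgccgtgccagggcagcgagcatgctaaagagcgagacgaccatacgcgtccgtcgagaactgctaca
The last pair are promoters with the DRE and no conservative peak, the 100 bp upstream of Ibf1 (chr3R:9258864-9258963, plus strand) and of CTCF (chr3L:7356714-7356813, minus strand). Capitals mark the DRE and the pentamer CGATA on either strand, the core bound by BEAF-32, of which the DRE holds an overlapping pair.
Ibf1 upstream: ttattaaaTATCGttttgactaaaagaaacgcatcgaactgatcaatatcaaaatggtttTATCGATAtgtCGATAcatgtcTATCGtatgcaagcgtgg
CTCF upstream: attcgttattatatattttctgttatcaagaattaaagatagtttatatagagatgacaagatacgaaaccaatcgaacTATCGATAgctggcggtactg

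The members Chro, pzg, BEAF-32, Cp190 and mod(mdg4), had a conservative peak within 5 kb (5 of 10), and CTCF, su(Hw), Ibf1, Ibf2 and dwg had none. Of all protein-coding genes, 32.9% had one, so the count alone does not set the members apart. The second list of both replicates gave the same 5 members (background 33.0%). A summit no more than 500 bp from a gene's own transcript start was found at 4 of 10 members, Chro, pzg, BEAF-32 and Cp190, against 10.6% of all genes. The 5 members with a peak were served by 8 conservative peaks, of which 7 had the capped IDR score of 1000, as did 86.4% of the whole list. With a group of 10 genes chosen with earlier results of these data known, these shares are descriptions and no test was made of them.

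The 5 kb limit falls between summits that are well apart. The farthest conservative summit inside it was the one 1352 bp from the body of mod(mdg4), and the nearest outside it was 8464 bp from Chro, with a signal of 125 and rank 1360. Among members without a peak the nearest was 10.7 kb from Ibf2, with a signal of 123 and rank 1395. The nearest summit to dwg was 13.2 kb away, that to su(Hw) 18.4 kb and that to CTCF 24.5 kb.

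**Figure D1:**
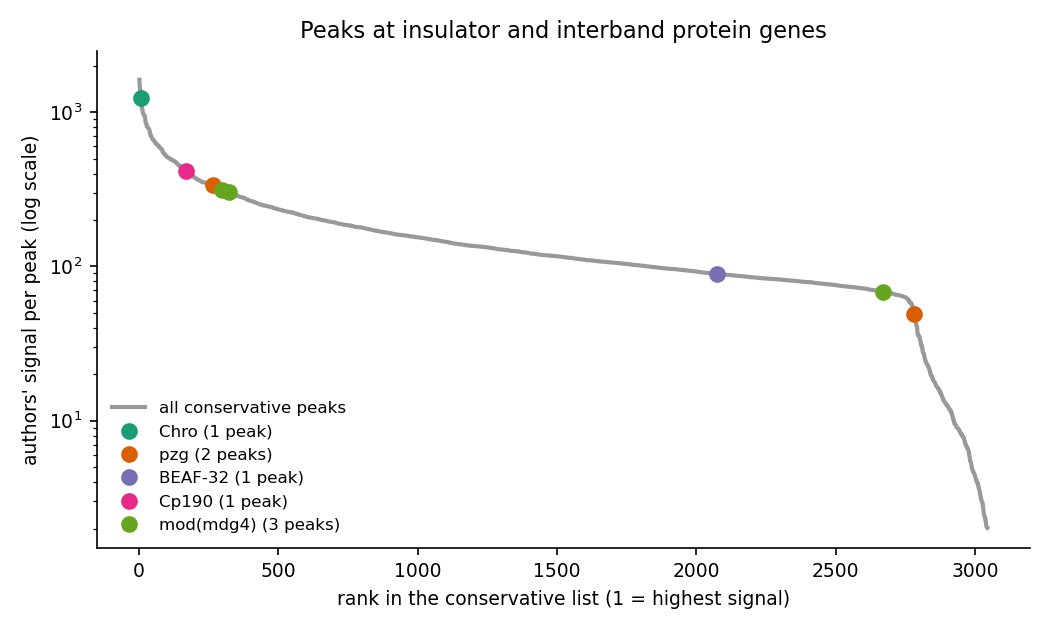
Authors' signal (log axis) against rank in the conservative list, with all 3045 peaks as a grey line and the 8 peaks at Chro, pzg, BEAF-32, Cp190 and mod(mdg4) as coloured points. The 5 highest stand at ranks 7 to 324, and the others at ranks 2075, 2669 and 2783.

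Among the interband proteins, Chro (FBgn0044324, chr3L:22873702-22878984, minus strand) had the highest peak of the group. The conservative peak at chr3L:22878739-22879065 had a signal of 1237 and rank 7 of 3045. Its summit lay in the 5′ UTR of Chro, 75 bp downstream of the outermost start. Replicate 1 had a signal of 627 (rank 9 of 2266) and replicate 2 a signal of 609 (rank 7 of 1793) at the same place, with summits 25 bp apart. Chro is thus near the top of each list. The start of Ssl1, a gene for a subunit of the general transcription factor TFIIH, lies 105 bp away on the opposite strand, and the peak covers part of the stretch between both starts. The next peak within 5 kb of Chro in the ranked list behind the conservative list had a signal of 32.4, in an intron of slif, at rank 21138 of 62469. No second peak near Chro came close to the one at its start.

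pzg (FBgn0259785, chr3L:21286099-21290310, plus strand), which encodes the zinc finger partner of Chro, had a conservative peak of 335 at chr3L:21285756-21285955, rank 266. The summit lay 249 bp upstream of pzg but 112 bp from the start of CG12974, inside the 5′ UTR of that gene, which runs the other way. Starts of pzg and CG12974 are 137 bp apart. By position the peak lies on the CG12974 side, but position alone does not settle which gene it belongs to, and this was not tested. A second, overlapping conservative peak at chr3L:21285868-21286231 had its summit 49 bp upstream of pzg and a signal of 49.2, rank 2783. Neither replicate had a separate peak for it. At the stronger place replicate 1 had 207 (rank 187) and replicate 2 had 130 (rank 393), with summits 28 bp apart. The replicates therefore placed pzg less evenly than Chro, although both listed it.

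Of the DNA-binding insulator proteins, only BEAF-32 had a conservative peak in this window. BEAF-32 (FBgn0015602, chr2R:14770469-14772630, plus strand), whose product binds clusters of CGATA, had a peak at chr2R:14770226-14770589 with a signal of 89.5 and rank 2075. The summit lay 61 bp upstream of its outermost start, in a non-coding exon of asRNA:CR42254, an antisense RNA gene that runs across the start. Replicate 2 listed the peak in its thresholded list with 56.6, rank 1436. In replicate 1 it was found only in the ranked list, with 40.4 at rank 2738 of 55955 and a −log10 IDR of 1.46, below the limit of the thresholded list. BEAF-32 is in the lower part of the thresholded lists that hold it, while in the longer ranked list of both replicates the same peak stands at rank 2156 of 62469. Its place in the thresholded lists rests on replicate 2 and on the combined replicates. In the ranked lists the replicates were closer, at 4.89% from the top in replicate 1 and 4.25% in replicate 2 (rank 1535 of 36134). Their summits were 67 bp apart.

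CTCF (FBgn0035769, chr3L:7353578-7356713, minus strand), the fly relative of the vertebrate insulator protein, had a peak in the thresholded list of replicate 1 only. Replicate 1 listed a peak at chr3L:7356374-7356709 with 47.0, rank 2012, and a summit 171 bp downstream of the start, in a non-coding exon of the antisense gene asRNA:CR45822. Replicate 2 had a peak there only in the ranked list, chr3L:7356384-7356723, with 17.5 at rank 23572 of 36134 and a −log10 IDR of 0.0362. Both ranked lists made from both replicates gave the place a signal of 61.6. Its −log10 IDR was 0.0982 in the list behind the conservative peaks (rank 3655) and 1.66 in the other (rank 3676 of 50282). Of the 4 thresholded lists, that of replicate 1 was the only one to hold a peak near CTCF.

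su(Hw) (FBgn0003567, chr3R:14304455-14308589, minus strand), whose zinc finger protein binds the gypsy insulator, had peaks only in the ranked lists. The highest in the ranked list behind the conservative one had 60.9 at rank 3719, in an intron of CG31321, 2634 bp upstream of su(Hw). Replicate 1 had 35.6 there, rank 3353, and a weaker peak of 29.0 had its summit 297 bp upstream of su(Hw), between it and the nearer start of Polr2I. The best peak of replicate 2 was elsewhere, in the coding sequence of su(Hw), with 27.7 at rank 6196. dwg (FBgn0000520, chrX:2727698-2730042, plus strand), whose product Zw5 was found through the scs boundary element, was alike in this respect. Its best peak in that ranked list had 41.8, rank 10001, and lay 19 bp from the start of the neighbouring gene CG2712. Replicate 1 had 33.1 near that start, rank 3894, and the best peak of replicate 2, with 24.3 at rank 9395, lay 952 bp from the start of fs(1)Ya. For both genes the replicates put their best peak at different places.

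Ibf1 (FBgn0037670, chr3R:9258964-9260400, plus strand) and Ibf2 (FBgn0037669, chr3R:9257727-9258501, minus strand) encode BED-finger partners that recruit CP190, and share 1 locus with starts 463 bp apart. No peak lay within 5 kb of them in either ranked list made from both replicates, or in the ranked list of replicate 1. Such a lack was uncommon, since 3.39% of protein-coding genes had no summit there in either ranked list of both replicates. The nearest summits on each side were 28.4 kb apart in these lists, with a median gap of 996 bp in the longer list, where 0.330% of gaps were as long. This gap was picked through its genes, and long gaps cover more sequence. The share by number therefore does not measure how rare the place is. The ranked list of replicate 1 had a gap of 27.0 kb. Replicate 2 was different, with 3 ranked peaks in the windows. The best had 20.1 at rank 16911 and lay in an intron of ATP6AP2, 453 bp past the end of Ibf1. Both genes count as 1 place, since they share their windows.

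The cofactor genes both had strong peaks within 5 kb, but only that of Cp190 stood near the gene's own start. Cp190 (FBgn0000283, chr3R:15270432-15275241, minus strand), which encodes the BTB-domain protein found with most fly insulator proteins, had a conservative peak of 413, rank 167. The peak is the one printed above, and its summit lay in intergenic sequence 115 bp upstream of Cp190. Replicate 1 had 218 (rank 173) and replicate 2 had 205 (rank 155), with summits 37 bp apart. The start of CG4338 lies 281 bp from that of Cp190 on the opposite strand, and the start of Cp190 is the nearer of the pair to the summit. The next peak near Cp190 in the ranked list behind the conservative one had 45.9, rank 7448. Cp190 resembled Chro in having a single strong peak, placed alike in both replicates.

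mod(mdg4) (FBgn0002781, chr3R:21350846-21377401, minus strand) encodes many BTB-domain isoforms, whose messages are joined by trans-splicing from a common 5′ part and separate 3′ parts, some of them on the other strand. It had 3 conservative peaks, none at its own start. The strongest, at chr3R:21365229-21365592, had 314 and rank 299. Its summit lay within the gene, 11990 bp downstream of the mod(mdg4) start and 77 bp from the start of pre-mod(mdg4)-E, in the 5′ UTR of that 3′ unit. Replicate 1 had 166 (rank 305) and replicate 2 had 146 (rank 301), with summits 3 bp apart. The second peak, at chr3R:21378664-21378852, had 305 and rank 324, and is also printed above. It lay in intergenic sequence 1352 bp upstream of mod(mdg4) and 224 bp upstream of tin, the heart and mesoderm homeobox gene. Replicate 1 had 161 (rank 320) and replicate 2 had 144 (rank 312), with summits 4 bp apart. The third, at chr3R:21366075-21366438, had 68.7 and rank 2669, and was in neither replicate's thresholded list. It lay 648 bp from the start of pre-mod(mdg4)-V. By position, then, no mod(mdg4) peak belongs to the promoter of the common 5′ part.

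**Figure D2:**
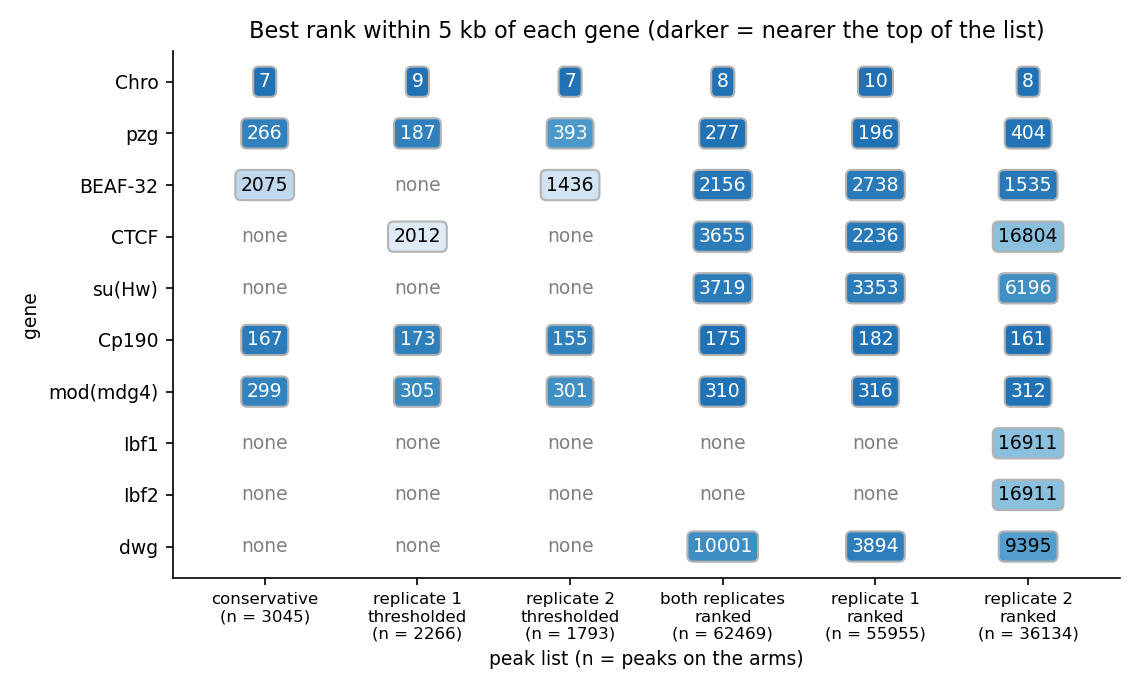
Best rank of any peak within 5 kb of each gene, by peak list, where n is the number of peaks of the list on the arms, darker boxes are nearer the top of the list and "none" marks no peak. Chro, pzg, Cp190 and mod(mdg4) are listed in all 6 lists, and Ibf1 and Ibf2 only in the ranked list of replicate 2, by the same peak.

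The replicates were set side by side for all members. Each replicate's thresholded list held 5 of the 10 members, against a background of 28.5% of genes for replicate 1 and 24.9% for replicate 2. The sets were not the same. Chro, pzg, Cp190 and mod(mdg4) were in both (4 of 10, against 22.4% of all genes), CTCF was in the list of replicate 1 only and BEAF-32 in that of replicate 2 only. The ranked lists discriminated little between genes. Replicate 1 had a ranked peak at 8 members (96.1% of all genes) and replicate 2 at all 10 (95.8%). Both ranked lists made from both replicates had one at 8 members, where the backgrounds were 95.5% for the list behind the conservative peaks and 94.7% for the other.

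**Figure D3:**
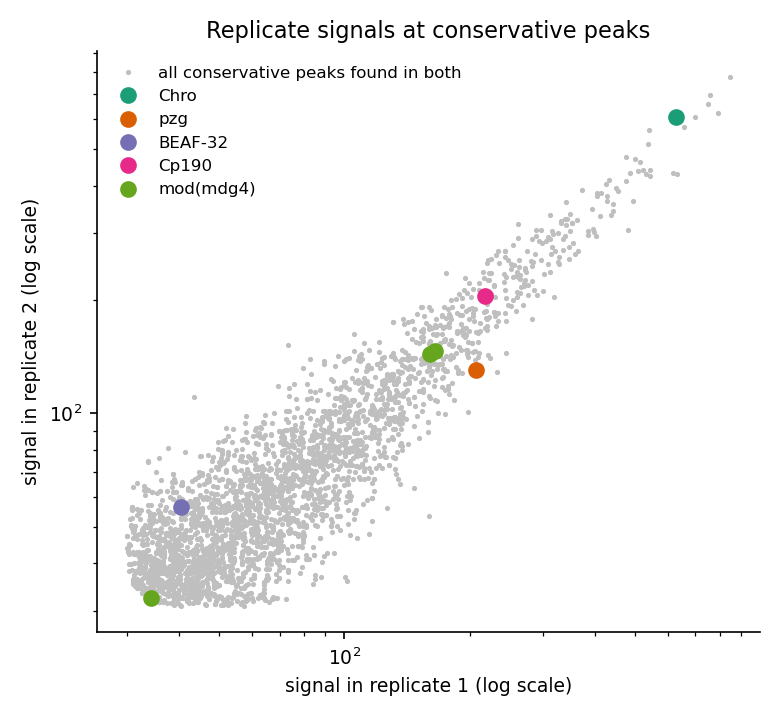
Authors' signal in replicate 2 against replicate 1 (log axes) for 3006 conservative peaks with an overlapping peak in both ranked lists (grey points) and for those at the members (coloured points; both pzg peaks share the same replicate peaks and are drawn once). Chro stands at the upper end with 627 in replicate 1 and 609 in replicate 2. BEAF-32 (40.4 and 56.6) and the third mod(mdg4) peak (34.3 and 32.5) are the lowest of the coloured points.

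The 5 members with a peak differed in strength. The strongest peak of each stood at 0.230% of the list from the top for Chro, 5.48% for Cp190, 8.74% for pzg, 9.82% for mod(mdg4) and 68.1% for BEAF-32. Their median was 8.74%, where the median over the 4594 protein-coding genes with a conservative peak was 33.8%. In the list of replicate 2 alone pzg stood at 21.9%, BEAF-32 at 80.1% and mod(mdg4) at 16.8%, and the median was 16.8%. In that of replicate 1 alone the median was 8.25%, with CTCF in place of BEAF-32. The pzg and mod(mdg4) values take peaks nearest to the starts of CG12974 and pre-mod(mdg4)-E. With each peak given only to the nearest protein-coding start, Chro, Cp190, BEAF-32 and pzg (by its weaker peak) had 1 peak each and mod(mdg4) had none. Of all protein-coding genes, 14.5% had a peak by that assignment. The median of the members with a peak was then 36.8%, whereas the 33.8% over all genes was taken with the 5 kb window. The bodies of the members had a median length of 3636 bp, against 2165 bp over all genes, and a longer body gives a wider window.

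Several features of the peaks and genes were set beside the whole list or all genes. Of the 8 peaks, 7 had a summit within 500 bp of an annotated start, 4 of them nearest to the member's own start. Of all 3045 conservative peaks, 42.4% had a summit that near to a start. The shares are not alike, since the rule kept only summits in or within 5 kb of a gene. Both pzg peaks overlap and are counted separately. Peaks narrower than the commonest width of 364 bp made up 4 of the 8, those of Chro (327 bp), pzg (200 bp), Cp190 (188 bp) and the one beside tin (189 bp). In the whole list 84.0% of peaks had that common width. Starts of protein-coding neighbours within 1000 bp on the opposite strand, an arrangement known as a divergent promoter, were found at 6 of 10 members against 33.3% of all genes. Counted by gene, these were 3 of 5 with a conservative peak (Chro, pzg and Cp190) and 3 of 5 without one (su(Hw), Ibf1 and Ibf2). Ibf1 and Ibf2 are each other's neighbour, with starts 463 bp apart, so the same stretch is counted for both.

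The stronger summits outside Chro were poor in G and C. In the 101 bp centred on the summit the share of G and C was 17.8% beside tin, 21.8% at pre-mod(mdg4)-E and at Cp190, 24.8% at the stronger pzg peak, 31.7% at Chro and 32.7% at BEAF-32. The weak second pzg peak (59.4%) and the third mod(mdg4) peak (55.4%) were high in G and C. The median was 30.7% over all conservative peaks and 46.5% over 59424 ranked peaks outside the list, so low values belong to the list as a whole. The first quartile of the list was 25.7%, and 4 of the 8 member peaks lay below its median.

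Motifs were searched on both strands in the same 101 bp. The Snail-type E-box CAGGTG, the kind of site that proteins of the Snail family bind, was at 0 of the 8 peaks, and at 2.04% of all 3045. Its reversed control GTGGAC was also at 0 (1.15% of all). BEAF-32-type CGATA was at 1, the Chro peak, 17 bp from the summit (11.1% of all). The Su(Hw)-type core TGCATA was at 1, the pre-mod(mdg4)-E peak, 20 and 22 bp from the summit on opposite strands (9.72% of all). The DRE (0.558% of all), Zelda-type CAGGTAG (0.394%), M1BP-type GGTCACACT (0.164%), GAGA-type GAGAG (7.72%) and the CTCF-type core AGGTGGCGC (0.427%) were at 0. CGATA lies inside the DRE, so any DRE match counts for both. Of the 8 windows, 6 held none of the 9 motifs, as did 70.7% of all 3045, and a missing match says only that these letters are not in the window.

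The DRE, found in none of the 8 summit windows, was present at starts of the members. It is the site of Dref, a factor of housekeeping and cell cycle promoters, and BEAF-32 can bind the same sequence. From 250 bp before to 50 bp after a start of the gene, it was present at 6 of 10 members, BEAF-32, CTCF, Cp190, mod(mdg4), Ibf1 and Ibf2, and at 10.2% of the 13968 genes. Of these 6, 3 had a conservative peak within 5 kb and 3 had none. At Cp190 the DRE covered the start, with its first base 4 bp upstream and the summit 115 bp upstream. At BEAF-32 it began 210 bp upstream and lay within the peak, 149 bp from the summit. At mod(mdg4) it began 54 bp upstream of the common start, where no conservative peak stood. At Ibf1, Ibf2 and CTCF it began 40, 7 and 21 bp upstream. Ibf1 and Ibf2 lie on either side of the same stretch but have a DRE each. CGATA alone was at 9 of 10 members, all but su(Hw), and at 53.1% of all genes. su(Hw) had the M1BP-type motif instead, 5 bp downstream of its start (6.77% of all genes). CAGGTG was at 1 member, Chro, at an inner start (12.4%), its reversed control GTGGAC also at 1, Cp190 (8.67%), and GAGAG at 0 (36.3%). These are matches of letters and were not tested.

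**Figure D4:**
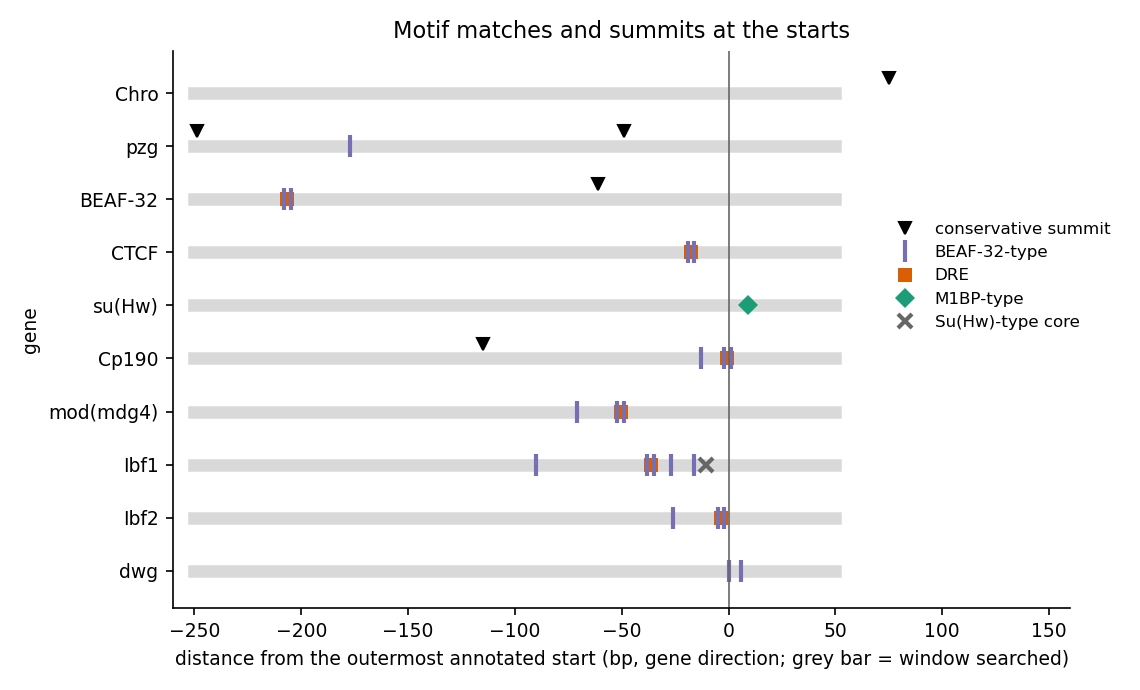
Motif matches (coloured marks) from 250 bp before to 50 bp after the outermost annotated start of each gene and conservative summits (black triangles), by distance from that start in bp in the direction of the gene. The DRE lies within 54 bp of the start at CTCF, Cp190, mod(mdg4), Ibf1 and Ibf2, and the summits of Cp190, BEAF-32 and pzg lie upstream of the starts.

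A wider list of 29 genes for insulator, cohesin, condensin and interband proteins had a conservative peak within 5 kb at 13, and 16 had none, beside the same background of 32.9% of all genes. At 7 of the 29, a conservative summit was found no more than 500 bp from one of their own starts (10.6% of all genes). The highest was the peak of 1226 (rank 8) at row, a zinc finger gene, but this summit was 4125 bp from row and nearest to mRpL41. A weaker conservative peak had its summit within 500 bp of an own start of row. Trl, which encodes the GAGA factor, followed with 972 (rank 15) in its intron. MRG15, a chromodomain gene, was listed with 413 only because the Cp190 peak lies 2753 bp from its start. JIL-1, the histone kinase that binds Chro, had 345 (rank 246) in its intron, 7075 bp from its nearest own start. Top2, the topoisomerase gene, had 285 (rank 357) by a peak nearest to RanGAP. The cohesin genes SMC1, SMC3, vtd and Nipped-B had none, nor did Dref. The strongest peaks listed at row, MRG15, JIL-1 and Top2 thus have another annotated start nearer.

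wor, the tagged gene, had 3 conservative peaks by the same rule, the best with 114 at rank 1546. The second list of both replicates had 1 peak there, and the thresholded list of either replicate had 0. In the same list the best peaks of Chro, Cp190, pzg and mod(mdg4) had the higher ranks, and that of BEAF-32 the lower.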

How the data were processed

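ChIP-seq peak lists of 2 biological replicates on the dm6 assembly were used. Per the labels, chromatin was sonicated to fragments of 200 to 800 bp. The sources used here name no aligner or peak caller. The authors deposited a signal and an IDR score for each peak. For ranked peaks the authors also deposited a global IDR as −log10. Summits and start positions were deposited in bp. The depth of each library is unknown, so no interval that needs it is given. Each peak of the conservative list was found, with the same score, in the longer of the 2 ranked lists made from both replicates.

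Peaks on 7 arms were ranked by signal within each list, leaving out 19 conservative peaks on other contigs. Coordinates count the first base as 1. Genes and starts were those of Ensembl release 115 and sequence that of RefSeq Release 6, whose arm lengths hold all peak ends. A summit in the gene body or within 5 kb gave a peak to a gene. Python 3.11.15 with pandas 2.3.3 was used, and the counting steps were tested on simulated data. The members and lists were chosen with earlier results of these data known. The genes named are the members, wor, genes with a start nearer to a member's summit, and the 5 strongest of the related list. The cohesin genes, Dref and the neighbours of ranked peaks were named after their values were seen. Alternatives changed the window, list, threshold, assignment, overlap and motif window.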

Additional observations from a re-analysis of the deposited data

How the results depend on the processing

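The count of members with a conservative peak stayed at 5 with windows of 2 kb (22.4% of all genes) and 10 kb (46.7%, close to the members' share), and was 5 in the list of either replicate, with CTCF in place of BEAF-32 in that of replicate 1. It was 2 of 10, Chro and mod(mdg4), with summits inside the gene body only, where 8.50% of all genes have one. The 8 peaks became 3 with summits inside the body, 5 in the upper part of the list, above its median signal, and 4 with the nearest start only. The median position of 8.74% from the top was 16.8% without replicate 1 and 8.25% without replicate 2, and 36.8% with the nearest start only. The related list, with 13 genes in the main setting (32.9% of all genes), had 4 with summits inside the body (8.50%). With the nearest start only it had 7 (14.5%). Without replicate 1 it had 12 (24.9%), and without replicate 2 it had 13 (28.5%). Motifs were also searched within 250 bp of the summit. The Snail-type motif (14.2% of all conservative peaks), its reversed control (11.5%), the Zelda-type (2.50%) and the GAGA-type motif (53.6%) were each at 1 peak. The DRE (4.63%) and the Su(Hw)-type core (31.7%) were at 2 and the BEAF-32-type motif (46.8%) at 6. Within 100 bp the Zelda-type motif was at 1 (0.854% of all) and the BEAF-32-type motif at 2 (23.2%). The members in both replicates and those with a summit at their own start stayed within 1.5 times under each alternative run. No paired analysis was possible because there is 1 group. Depth is unknown, and without a control library no peak could be set against background.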
